A study of Mus musculus with 63 samples.

Results

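The comparison set keratinocytes carrying v-rasHa against mock-treated keratinocytes, in cells with wild-type *Egfr* (WT) that received no kinase inhibitor. Its members were the arrays titled as WT ras (5) and WT mock (5), 10 of the 63 arrays of the series. The pair of mock arrays named repeat 1, which carry opposite dye orders, was averaged, so 5 WT ras samples stood against 4 WT mock samples, numbered 1, 2, 3 and 5. Keratinocytes came from the skin of newborn CD-1 mice. WT ras cells were transduced with supernatant of Psi-2 retrovirus producer cells and cultured for 4 days. The labels do not say what the mock treatment contained, so v-rasHa and retroviral infection cannot be told apart here. A ras difference or ras effect below means ras minus mock as labelled. Both groups lie in the same pair of array runs, a run being a stretch of neighbouring experiment numbers in the labels whose meaning is not given. Set beside it are 4 further ras comparisons that share no sample with it. They are ras against mock in WT cells given an EGFR kinase inhibitor, 1 µM of AG1478, erlotinib or PD153035 for 2 h (5 arrays in each of these 6 groups), and KO ras (5) against KO mock (3) in cells from mice labelled as a knockout of EGFR. The values are log ratios of a sample over universal mouse reference RNA, a pool from mouse cell lines, taken here as log2, and positive values mean more signal from the keratinocytes than from the pool.

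RAS proteins are small GTPases that relay signals from receptors such as EGFR, the epidermal growth factor receptor, to the RAF, MEK and ERK kinases. The viral Harvey ras oncogene encodes a form that stays active without the receptor. In mouse skin an activated *Hras* is a classical initiating event of papilloma formation, and keratinocytes transduced with it are known to secrete EGFR ligands and to alter their differentiation. *Hras* is not among the genes annotated to the probes, so the level of the transgene was not analysed here. Probes annotated with retroviral sequence were counted and set apart, and every gene named below is a host gene.

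The keratinocyte genes *Krt14* and *Perp* lay above the reference pool in all 9 samples, with WT ras samples at 3.11 to 5.52 and 4.25 to 4.90 and WT mock samples at 1.74 to 3.52 and 3.60 to 4.53 on the log2 ratio scale. The basal keratin *Krt15* did not, at −1.08 to 0.46 in WT ras and −0.50 to 0.78 in WT mock. Fibroblast markers ranged from far below the pool, as the collagen *Col3a1* at −7.63 to −2.96 in WT ras and −5.21 to −4.34 in WT mock, to near it, as *Thy1* at −0.99 to 1.60 in WT ras and −1.78 to 0.07 in WT mock. Of the pigment cell markers, *Dct* lay above the pool at 1.89 to 4.83 in WT ras and 3.24 to 5.44 in WT mock, and *Sox10* lay on both sides of it at −0.69 to 1.97 in WT ras and −1.06 to 0.99 in WT mock. WT ras 3 stood apart from the other arrays, with a median correlation of 0.584 against 0.700 to 0.827 for the other 9. Values without it are given where it decides a count.

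Few host genes were called. Of 27917 probes tested in limma with Benjamini-Hochberg adjustment over all of them, 51 had an adjusted p under 0.05, which is 0.183% (49 higher, 0.176%, and 2 lower, 0.00716%). Among them 26 carried no gene name and 16 were annotated with retroviral sequence, all of them higher. The remaining 9 belonged to host genes, 0.0432% of 20830 host-gene probes. *Kcnd1*, *Six2*, *Krt23*, *Tnfaip2*, *Ptpn22*, *Myo5b* and *Bend7* rose in WT ras cells relative to WT mock cells, and *Foxd3* and *Olfr1093* fell. The mean of WT mock lay outside those of all 12 other groups of the series for 7 of the 9, the exceptions being *Six2* and *Tnfaip2*, and these levels are given with the other ras comparisons. Adjusted over the host-gene probes alone, a choice made after seeing the data, 0 were called. The lowest adjusted p was then 0.0679, for *Foxd3*, and the other 8 ran up to 0.195. Unadjusted, 1294 host-gene probes (6.21%) had a p under 0.05, 813 higher and 481 lower. The 95% interval of a host-gene probe, before adjustment, reached a median of 0.80 to either side of its log2 difference, so smaller changes were mostly not detectable with these samples. A call after adjustment asked for more, and the smallest called difference of a host gene was 1.41, for *Bend7*. In all, 133 of 14488 host genes had every WT ras sample above every WT mock sample (0.918%) and 140 had every WT ras sample below (0.966%).

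*Krt23*, a type I keratin of simple epithelia, had log2 ratios of 1.98, 1.58, 1.80, 1.66 and 2.17 in WT ras 1 to 5, against 0.30, −2.50, −0.50 and 0.20 in WT mock 1, 2, 3 and 5. The WT ras samples lay within a narrow band, and WT mock 2 was far below the other mock samples. The fitted difference was 2.47 ± 0.56 (SE, adjusted p = 0.0314). *Tnfaip2*, a gene named for its induction by tumour necrosis factor, had 2.03, 1.71, 1.65, 1.12 and 3.43 in WT ras 1 to 5, against 0.19, −0.81, 0.28 and 0.54 in WT mock. Every WT ras sample was above every mock sample, WT ras 5 by the widest margin, and the difference was 1.99 ± 0.42 (adjusted p = 0.0123). A second probe of each gene gave a smaller difference of the same sign, 1.22 ± 0.57 for *Krt23* (adjusted p = 0.718) and 0.99 ± 0.49 for *Tnfaip2* (adjusted p = 0.742), with overlapping samples.

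Promoter windows of these genes are shown because both rose, and that of *Mmp3* because it holds a motif of AP-1, the Fos and Jun factor downstream of ERK. Each runs from 250 bases before to 50 bases after the RefSeq start site on GRCm38.p6, 5′ to 3′ on the gene's strand, at chr11:99493071-99493370 (minus), chr12:111442411-111442710 (plus) and chr9:7445572-7445871 (plus). Capitals mark TGANTCA, which reads the same on both strands.
Krt23: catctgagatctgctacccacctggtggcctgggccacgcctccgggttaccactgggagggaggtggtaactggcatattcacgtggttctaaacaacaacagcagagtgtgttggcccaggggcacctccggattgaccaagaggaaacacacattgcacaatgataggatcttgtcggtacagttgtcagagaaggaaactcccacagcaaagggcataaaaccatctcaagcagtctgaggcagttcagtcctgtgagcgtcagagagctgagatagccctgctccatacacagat
Tnfaip2: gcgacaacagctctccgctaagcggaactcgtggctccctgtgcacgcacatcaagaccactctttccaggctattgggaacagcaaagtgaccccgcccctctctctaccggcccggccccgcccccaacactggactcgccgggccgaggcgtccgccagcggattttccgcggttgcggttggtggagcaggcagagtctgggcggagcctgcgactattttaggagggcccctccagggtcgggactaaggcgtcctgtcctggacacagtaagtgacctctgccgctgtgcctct
Mmp3: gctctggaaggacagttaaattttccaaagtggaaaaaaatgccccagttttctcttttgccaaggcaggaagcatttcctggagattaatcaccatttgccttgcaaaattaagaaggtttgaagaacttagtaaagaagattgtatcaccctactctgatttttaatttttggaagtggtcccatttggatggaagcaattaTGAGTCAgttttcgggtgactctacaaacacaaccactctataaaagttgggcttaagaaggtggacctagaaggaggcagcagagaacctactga
Of the 9 called genes 6 have windows in the table used, 7 windows in all, and 0 of them hold these letters, against 7.81% of 32851 windows. That says only that these letters are not in these windows.

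*Kcnd1*, a subunit of voltage-gated potassium channels, had log2 ratios of 3.42, 3.22, 6.03, 2.84 and 5.39 in WT ras 1 to 5, against 1.94, 0.60, 1.05 and 2.44 in WT mock. The groups did not overlap, and WT ras 3 and 5 were well above the other ras samples. It had the largest difference of the called host genes, 2.72 ± 0.58 (adjusted p = 0.0127). *Six2*, a homeobox factor known from kidney progenitors, averaged 2.55 ± 1.23 in WT ras and −0.01 ± 1.66 in WT mock (SD), a difference of 2.55 ± 0.59 (adjusted p = 0.0332). It was the called host gene whose groups overlapped, since WT ras 2 at 0.72 lay below WT mock 1 and 5 at 1.01 and 1.02.

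*Ptpn22*, a tyrosine phosphatase best known from lymphocytes, had 0.42, 0.74, 0.90, 0.00 and 0.91 in WT ras 1 to 5, against −0.54, −2.02, −1.48 and −0.29 in WT mock. The groups did not overlap, and the difference was 1.72 ± 0.38 (adjusted p = 0.0172). Another probe of it gave 0.86, uncalled. *Myo5b*, an unconventional myosin of recycling endosomes, lay at −0.96 to −0.17 in WT ras and −2.74 to −1.55 in WT mock, a difference of 1.64 ± 0.39 (adjusted p = 0.046). *Bend7*, a BEN domain gene, lay at −0.86 to 0.71 in WT ras and −1.66 to −1.18 in WT mock, a difference of 1.41 ± 0.32 (adjusted p = 0.0332). Its other probe gave −0.04, so the probes of *Bend7* disagreed.

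*Foxd3*, a forkhead factor of the neural crest, had 0.70, 1.04, 0.26, 0.38 and 0.65 in WT ras 1 to 5, against 2.18, 1.46, 2.80 and 2.56 in WT mock. Every ras sample was lower, and the difference of −1.61 ± 0.31 had the lowest adjusted p of the host genes (0.00284). Neural crest gives rise to melanocytes, and *Foxd3* is on the list of 14 melanocyte markers, of which 13 were tested and 9 were negative. The list's mean log2 ratio lay at 0.75 to 1.84 in WT ras and 1.38 to 2.26 in WT mock, and *Tyrp1*, a melanin enzyme, gave −2.91 ± 1.28 (adjusted p = 0.675). The other pigment cell genes *Tyr*, *Dct* and *Mitf* gave −0.15, −1.04 and −0.18, and *Mlana* was highest at 0.74. The part of these cells in the *Foxd3* difference was not tested. In bulk samples fewer cells of a type and less RNA per cell cannot be told apart. *Olfr1093*, an olfactory receptor, had 0.72, −0.39, 0.55 and −0.68 in WT ras 1, 3, 4 and 5 and no value in WT ras 2, against 2.08, 1.98, 1.93 and 2.94 in WT mock (−2.33 ± 0.48, adjusted p = 0.00972).

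**Figure D1:**
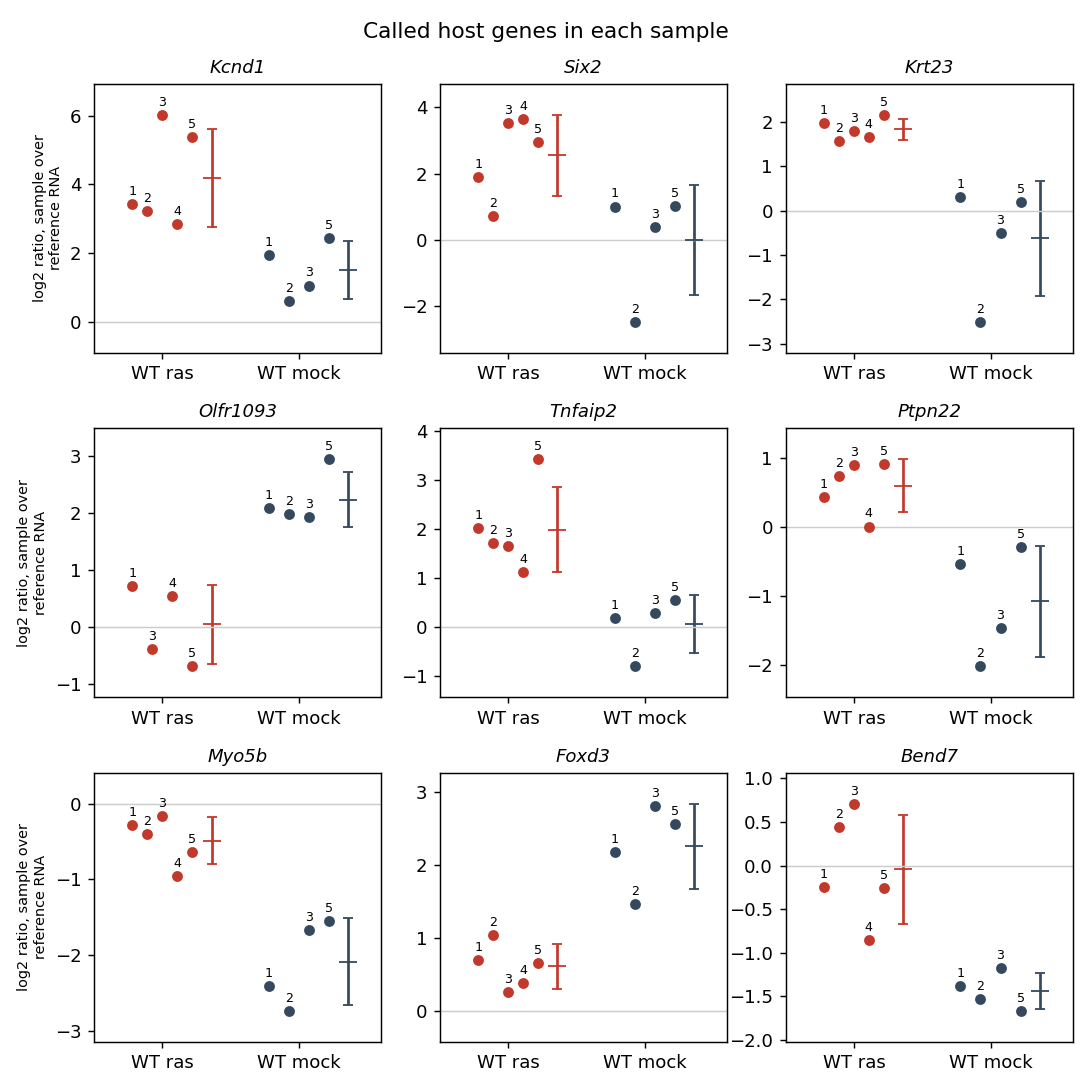
Log2 ratio of sample over reference RNA (vertical axis) of the 9 called host genes in each WT ras sample (left, red) and WT mock sample (right, blue), numbered by replicate, with the mean and SD beside them. The samples of 8 genes do not overlap between the groups, and those of *Six2* do.

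Within each of the 2 array runs the 9 called genes kept their sign. In the run with WT ras 1 to 4 and 3 mock arrays, *Kcnd1* gave 1.71, *Krt23* 1.60, *Tnfaip2* 1.38 and *Foxd3* −1.88 as ras minus mock means. In the other run, with WT ras 5 and 2 mock arrays, the same genes gave 4.65, 3.50, 3.61 and −1.24. With run as a fixed block 13 host genes were called and within the larger run alone 1. Single samples moved the count too. Without WT ras 5, WT mock 2 or WT mock 3, 1, 2 and 2 host genes were called. Without WT ras 3 the number was 6, and 3 of the 9 were among them.

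The other ras comparisons called more probes, 1429 of 27666 with AG1478 (5.17%), 1463 of 27933 with erlotinib (5.24%), 332 of 27932 with PD153035 (1.19%) and 151 of 28034 in KO cells (0.539%). Their ras and mock arrays lie in different array runs, so run and ras cannot be told apart there. With run as a random block the counts were 145, 217, 63 and 7. Calls and adjusted p-values of single genes in these comparisons, here and below, come from the limma fit without a run term. Which of those genes stay called with run as a random block is not given here. *Tnfaip2* was called in all 3 inhibitor comparisons, with 2.38 ± 0.40 under AG1478 (adjusted p = 7.8e-05), 2.60 ± 0.42 under erlotinib (adjusted p = 4.6e-05) and 2.23 ± 0.40 under PD153035 (adjusted p = 0.000364). Its second probe was called in none of them, at −0.10, 0.76 and 0.28 in the same order, so the probes of *Tnfaip2* disagreed there. *Krt23* gave 2.58 ± 0.53 with AG1478 (adjusted p = 0.00166), 2.81 ± 0.53 with erlotinib (adjusted p = 0.000592) and 1.19 ± 0.53 with PD153035 (adjusted p = 0.344). *Kcnd1* was called with AG1478 (2.24 ± 0.55, adjusted p = 0.00929) and erlotinib (2.02 ± 0.55, adjusted p = 0.0197) and gave 1.33 ± 0.55 with PD153035 (adjusted p = 0.291). *Myo5b* was called with erlotinib (1.53 ± 0.36, adjusted p = 0.00674) and PD153035 (2.02 ± 0.36, adjusted p = 0.000441).

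The mean levels over all 13 groups differed in kind among the called genes. *Tnfaip2*, read by its called probe, averaged 1.58 to 2.01 in the 4 WT ras groups, with or without inhibitor, against −0.64 to 0.69 in the 9 other groups. *Krt23* averaged 1.53 to 2.79 in the WT ras groups, against −0.62 to 1.13 in the others, *Six2* 1.78 to 2.56 against −0.25 to 1.22 and *Kcnd1* 4.18 to 5.61 against 1.51 to 3.46. WT mock was the lowest group for *Krt23* and *Kcnd1*, with the next at −0.18 and 1.94. *Foxd3*, in contrast, averaged 0.61 in WT ras and 2.25 in WT mock, while the 3 WT mock groups with an inhibitor averaged 0.74 to 0.84 and KO mock 0.64. *Bend7* averaged −0.04 in WT ras and −1.44 in WT mock, and −0.47 to 0.15 in the 11 other groups. *Ptpn22* averaged 0.59 in WT ras and −1.08 in WT mock, and −0.45 to 0.68 in the others. *Olfr1093* and *Myo5b* were likewise most extreme in WT mock, at 2.23 and −2.09, with the next group at 1.49 and −1.72. No test was made of these orders.

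For the other called genes the comparisons within each inhibitor or genotype gave smaller values. *Foxd3* gave −0.19, 0.29 and −0.09 with AG1478, erlotinib and PD153035, and *Bend7* gave 0.01, −0.26 and 0.22. *Ptpn22* gave 0.48, 0.41 and 0.65, none of them called. *Olfr1093* was called with AG1478 (−1.56 ± 0.46, adjusted p = 0.0338) and gave 0.21 with erlotinib. In KO cells 0 of the 9 genes were called in limma and 5 had the sign of the WT difference, the largest being *Kcnd1* at 1.40 ± 0.64 (adjusted p = 0.634). The difference between the ras effects of WT and KO cells was called for 3 of 27910 probes (0.0107%), *Dlk1*, *Cd320* and *Cyp2c37*, and for 0 of the 9. For *Tnfaip2* it was 1.41 ± 0.62 (adjusted p = 0.818) and for *Foxd3* −2.01 ± 0.46 (adjusted p = 0.175).

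Beyond the called genes, the sign of the WT difference was followed into these separate samples. Of 147 host genes higher in WT ras with an unadjusted p under 0.01, 88.4% were positive with AG1478, 85.7% with erlotinib, 90.5% with PD153035 and 61.9% in KO cells. Of all 7775 host genes with a positive WT difference and a value in every comparison, 65.6%, 64.8%, 63.1% and 51.0% were positive in the same order. All 3 inhibitor comparisons were positive for 77.6% of the 147 genes and for 38.8% of the 7775. For the 63 genes lower at this p the shares were 65.1%, 63.5%, 68.3% and 54.0%, beside 52.2%, 47.1%, 52.6% and 50.0% of all 6569 genes with a negative WT difference. Genes are not independent replicates, and these shares carry no test. Run and ras cannot be told apart in the inhibitor and KO comparisons.

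**Figure D2:**
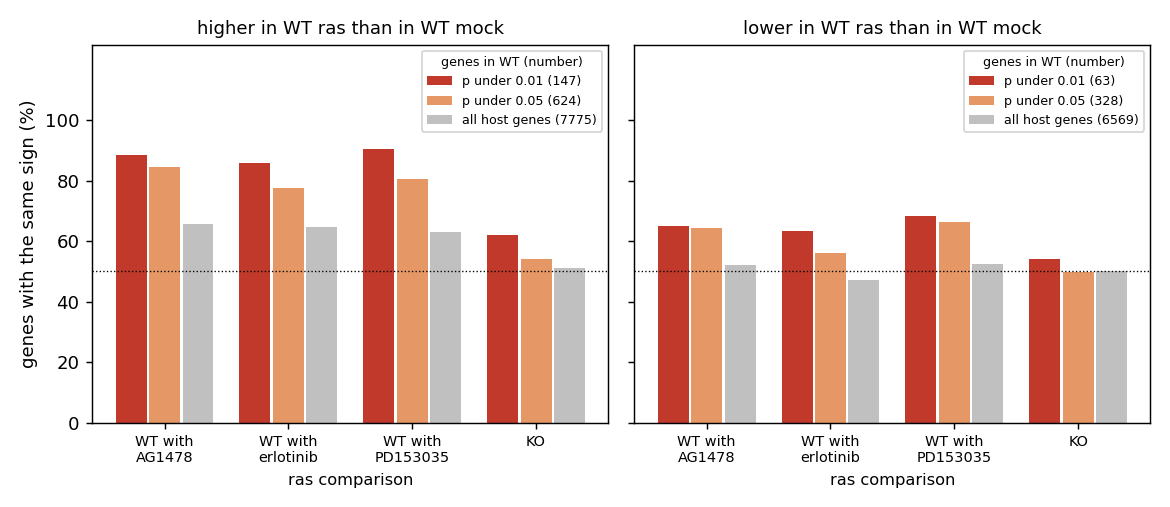
Percent of host genes (vertical axis) whose ras difference has the sign of the WT difference in each of the other 4 ras comparisons, for genes higher (left) and lower (right) in WT ras, by unadjusted p in WT. Among higher genes the share with p under 0.01 is 85.7 to 90.5% in the inhibitor comparisons and 61.9% in KO cells. For all host genes with a positive WT difference the shares are 63.1 to 65.6% and 51.0%. The dotted line marks 50%.

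The genes with the largest uncalled differences among those without overlap were *Vps37d*, *Lim2*, *Mt3*, *Styx* and *Hmox1* on the higher side. *Vps37d*, a subunit of the ESCRT-I sorting complex, had 4.19, 5.27, 6.58, 5.28 and 5.34 in WT ras, against 3.28, 2.27, 3.43 and 3.31 in WT mock (2.28 ± 0.59, adjusted p = 0.125). It was called with AG1478 (2.98, adjusted p = 0.000408) and erlotinib (1.78, adjusted p = 0.0452). *Lim2*, a lens fibre membrane protein, gave 2.23 ± 0.66 without inhibitor and was called with AG1478 (4.16 ± 0.63, adjusted p = 1.06e-05). The pseudophosphatase *Styx* gave 2.20 ± 0.63 and was called with AG1478 (3.59, adjusted p = 5.63e-05) and erlotinib (2.13, adjusted p = 0.0229). *Mt3*, a metallothionein, gave 2.23 ± 0.69 and was called with AG1478 (2.89, adjusted p = 0.00456). *Hmox1*, haem oxygenase 1, gave 2.09 ± 0.79 and was called in none of the 5.

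On the lower side *Serpinb5*, which encodes the epithelial serpin maspin, had 3.38, 2.59, 0.62, 3.76 and 4.03 in WT ras, against 5.90, 6.72, 7.08 and 5.15 in WT mock. It had the most negative difference of all host genes, with a wide error (−3.32 ± 1.17, adjusted p = 0.54), and gave −1.12, 0.11 and −1.25 with AG1478, erlotinib and PD153035. *Scn9a*, a sodium channel, gave −1.80 ± 0.66, the zinc finger gene *Zfp979* −1.77 ± 0.82, the olfactory receptor *Olfr1256* −1.74 ± 0.68 and *Trim59* −1.37 ± 0.57. None of these 5 was called in any of the 5 ras comparisons.

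Genes were next read by function in 33 lists, beside a median difference of 0.04 over all 14488 host genes, 54.0% of which were positive. Among list members 2 were called, *Krt23* and *Foxd3*. The ligands of EGFR are known to be induced by RAS in keratinocytes. In the list of EGF family ligands, not all of which bind EGFR, 4 of 7 measured were positive. *Tgfa*, transforming growth factor alpha, had 3.19, 1.64, 4.41, 3.05 and 4.08 in WT ras, against 1.50, 0.99, 1.53 and 1.68 in WT mock. WT ras 2 lay just under WT mock 5, and the other ras samples lay above all mock samples. Its difference was 1.85 ± 0.55 (adjusted p = 0.316) without inhibitor, 1.84 with AG1478 (adjusted p = 0.0244), 1.40 with erlotinib, 1.37 with PD153035 and 1.37 in KO cells. *Hbegf*, heparin-binding EGF, gave 0.87 ± 0.59, and *Ereg*, epiregulin, gave −1.28 ± 1.23. *Egfr* itself gave −0.58 ± 0.43 (adjusted p = 0.876), with WT ras samples at 0.43 to 2.84 and WT mock samples at 2.14 to 2.79, *Erbb2* gave −0.02 and *Erbb3* 0.05.

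Downstream of RAS, 9 of 17 pathway genes were measured. *Nras* gave −0.23, *Araf* −0.64 and *Map2k1*, which encodes MEK1, −0.28. The range ran from the exchange factor *Sos1* at −0.80 ± 0.33 to the GTPase activator *Rasa1* at 0.95 ± 0.47. ERK feedback genes, a list of genes that ERK induces and of which only some then dampen it, were positive for 9 of 11 with a median of 0.43, and 0 were called. *Dusp6*, the ERK phosphatase, had 1.53, 1.71, 0.03, 0.52 and 0.60 in WT ras, against −0.29, −0.43, −0.26 and 0.08 in WT mock. WT ras 3 lay among the mock samples and the other ras samples above them, and the difference was 1.11 ± 0.38 (adjusted p = 0.497). With PD153035 it was 1.60 (adjusted p = 0.00709) and with AG1478 0.10. *Spry2* gave 0.68 ± 0.29, *Spred1* 0.28 and *Spry1* −0.49.

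The immediate early genes, first targets of ERK, were positive for 13 of 18 with a median of 0.09. *Egr1* lay at 2.10 to 3.30 in WT ras and 1.98 to 3.00 in WT mock, a difference of 0.04 ± 0.31 (adjusted p = 0.998). The ras difference of *Egr1* was −2.53 with AG1478, −2.73 with erlotinib and −2.48 with PD153035 (adjusted p = 3.52e-08, 1.98e-09 and 4.03e-08). *Fos* gave 0.57 ± 0.66 and *Fosl1* 0.46 ± 0.78 without inhibitor, and the list ran from *Egr2* at −0.79 ± 0.31 to *Jund* at 0.93 ± 0.37.

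Cytokine genes lay on both sides of 0, with 9 of 22 positive and a median of −0.12. *Il24*, an interleukin of the IL-10 family, had the largest positive difference of all host genes at 3.13 ± 0.86 (adjusted p = 0.215). Its ratios were 3.24, 4.16, 5.70, 5.88 and 6.65 in WT ras, against 1.65, 3.25, 2.90 and 0.34 in WT mock, so that WT ras 1 and WT mock 2 lay side by side. With AG1478 it was called at 2.78 (adjusted p = 0.0305), and it gave 0.90, 1.72 and 1.76 with erlotinib, with PD153035 and in KO cells. *Csf2* gave 1.49 ± 0.57, and WT ras 1 and 5 at 4.84 and 4.23 stood above the other ras samples at 0.08 to 2.46. *Cxcl1* gave 1.26 ± 0.75, *Il1a* 1.10 ± 0.53, *Cxcl2* −0.18 and *Il18* −1.37 ± 0.74.

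Alarmins, the S100 and antimicrobial genes of stressed epidermis, were positive for 8 of 12 with a median of 0.10. *S100a9* had 3.27, 3.86, 4.55, 3.95 and 4.43 in WT ras, against 2.79, 1.28, 2.85 and 3.02 in WT mock. The groups did not overlap, with WT mock 2 far below the rest, and the difference was 1.52 ± 0.57 (adjusted p = 0.581). Its partner *S100a8* gave 1.03 ± 0.62, also without overlap. *S100a7a* gave 1.70 ± 0.62, although WT ras 3 at −0.20 lay below all mock samples. *S100a9* was called with AG1478 (1.69, adjusted p = 0.0499) and erlotinib (2.85, adjusted p = 0.000533), and gave 1.40 with PD153035. *Defb1*, a beta defensin, gave −1.24 ± 0.39.

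Differentiation genes of the suprabasal layers were positive for 20 of 25 with a median of 0.66, and 0 were called. *Krt1* and *Krt10*, the keratin pair of the spinous layer, gave 1.09 ± 0.73 and 0.66 ± 0.49, and *Lor*, the envelope protein loricrin, gave 1.15 ± 0.58. The list ran from the desmosomal cadherin *Dsg1a* at −1.77 ± 0.91 to the small proline-rich *Sprr3* at 1.91 ± 0.77. The list's mean lay at 2.31 to 4.24 in WT ras and 2.51 to 2.97 in WT mock, so the samples overlapped. Its median was 1.52 with AG1478, 0.75 with erlotinib, 0.07 with PD153035 and 0.29 in KO cells.

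Stress keratins of wounded epidermis were positive for 7 of 7 with a median of 0.73, beside *Krt6a* at 1.69 ± 0.92, *Krt16* at 1.17 ± 0.71 and *Krt6b* at 0.56 ± 0.73, and *Krt13* was lowest at 0.09. With PD153035 3 of 7 were positive. Without inhibitor the list's mean lay at 0.961 to 2.732 in WT ras and 0.175 to 1.882 in WT mock, so the samples overlapped. In limma 0 of these 7 had an unadjusted p under 0.05. Of the simple epithelial keratins, *Krt18* gave 1.35 ± 0.70, *Krt7* 0.43 and *Krt8* −0.19. Basal keratins and adhesion genes were positive for 7 of 14 with a median of −0.05, among them *Krt14* at 1.47 ± 0.72, *Krt5* at 0.51 ± 0.89, *Krt15* at −0.57 ± 0.43 and the epidermal factor *Trp63* at −0.72 ± 0.76. Within that list *Itga3*, the alpha 3 chain of the laminin receptor, had 2.70, 2.97, 2.80, 2.83 and 3.08 in WT ras, against 1.63, 1.60, 1.57 and 1.94 in WT mock. Both groups were tight, with an SD of 0.15 in WT ras and 0.17 in WT mock, and they lay apart. The difference was 1.21 ± 0.35 (adjusted p = 0.314) and was called with each inhibitor, at 1.34, 1.50 and 1.30 (adjusted p = 0.0109, 0.00367 and 0.0302). Run and ras cannot be told apart in the inhibitor comparisons.

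Among epidermal regulators *Notch1*, a receptor that drives keratinocyte differentiation, gave −0.95 ± 0.35 (adjusted p = 0.573) without inhibitor. It had 1.76, 1.78, 0.71, 2.18 and 1.21 in WT ras, against 2.14, 3.20, 2.48 and 2.15 in WT mock, with WT ras 4 just inside the mock range. With AG1478, erlotinib and PD153035 it was called at −1.88, −1.36 and −1.96 (adjusted p = 0.000174, 0.00755 and 0.000127). *Klf5* gave 0.60 and *Notch2* 0.06, and *Ovol1* was highest at 0.95 ± 0.90. *Sostdc1*, a secreted BMP and Wnt antagonist, gave −1.63 ± 0.69, *Dkk3* −0.41, *Axin2* −0.18 and *Lef1* 0.76. *Stat3*, a cytokine-activated transcription factor, had 0.03, 0.32, 0.64, 0.30 and −0.05 in WT ras, against 1.05, 0.85, 1.01 and 1.28 in WT mock. All ras samples lay lower, the difference was −0.81 ± 0.21 (adjusted p = 0.146), and it was called with AG1478 (−1.04, adjusted p = 0.000616) and PD153035 (−0.97, adjusted p = 0.0028). Related signalling genes included *Jak2* at −0.25, *Csf2rb* at 0.10 and *Socs1* at 0.78. The *Epor* probe annotated with the host transcript alone gave 0.59 ± 0.32 (adjusted p = 0.784). The other *Epor* probes also carry a retroviral record and were counted as virus-linked.

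Cholesterol and fatty acid synthesis genes were positive for 21 of 22 with a median of 0.40, and 0 were called. Most shifts were small, with *Hmgcs1* and *Sqle*, early enzymes of sterol synthesis, each at 0.26 and *Mvk* at 0.39, while *Nsdhl* lay lowest at −0.04. *Scd1*, the stearoyl-CoA desaturase, gave 1.18 ± 0.48. The list's mean lay at 0.458 to 0.808 in WT ras and −0.061 to 0.454 in WT mock, just without overlap. In all the other lists the sample means of WT ras and WT mock overlapped. Whether chance alone would part the groups this narrowly in some list was not tested. The number positive was 17 with AG1478, 17 with erlotinib, 16 with PD153035 and 13 in KO cells, of 22 each. Targets of NRF2, the oxidant-response factor, were positive for 10 of 13 with a median of 0.32, led by *Hmox1*, with *Nqo1* at 0.30, *Gclm* at −0.13 and *Slc7a11* at −0.56. Targets of ATF4, the amino acid stress factor, were positive for 3 of 15 with a median of −0.20, from *Chac1* at −0.63 to *Sesn2* at 0.43, with *Atf4* at −0.20, *Asns* at −0.40 and *Trib3* at −0.07.

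Cell cycle lists lay near the median of all genes. Replication genes were positive for 13 of 19 with a median of 0.12, and *Ccnd1*, cyclin D1, had 1.79, 2.97, 1.62, 2.40 and 3.06 in WT ras, against 1.48, 1.26, 1.43 and 1.22 in WT mock. The groups did not overlap, and the difference was 1.01 ± 0.48 (adjusted p = 0.719). *Mcm5* gave 0.09, *Pcna* 0.08, *Ccne1* 1.14 and *Mcm2* −0.64. Mitotic genes were positive for 12 of 18 with a median of 0.13, from *Mki67* at −1.05 ± 0.67 to *Bub1b* at 0.76 ± 0.42, with *Cdk1* at 0.38 and *Ccna2* at −0.13. Of the brakes on the cycle, *Cdkn2a* gave 0.00, *Cdkn1a* 0.69 and *Cdkn2b* −0.78, and *Pml* was highest at 0.70. Targets of p53 were positive for 4 of 13, with *Mdm2* at −0.13, *Ccng1* at 0.22 and *Trp53inp1* at −0.68.

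Matrix proteases and the urokinase system were positive for 10 of 15 with a median of 0.36. *Mmp3*, stromelysin 1, gave 1.40 ± 0.63, and WT ras 2 at 5.32 and WT ras 1 at 1.52 were far apart. *Mmp9* gave 0.56, *Plau* 0.36 and *Plaur* 0.52, and the protease inhibitor *Timp3* was lowest at −0.78 ± 0.30. Targets of TGF-beta were positive for 3 of 10 with a median of −0.56. *Fn1*, fibronectin, lay at −1.20 to 0.89 in WT ras and 0.90 to 1.59 in WT mock (−1.24 ± 0.52), *Tgfbi* gave −1.17 ± 0.63, *Tgfb2* −0.87 ± 0.34 and *Tgfb1* 0.38. Beside this list, 13 of 18 fibroblast markers were negative with a median of −0.36, *Col1a1* at −1.11 and *Col1a2* at −1.49, while *Thy1* was highest at 0.68 and *Vim* gave −0.24. Their mean lay at −2.65 to −0.50 in WT ras and −1.13 to −0.74 in WT mock, and their part in the TGF-beta list was not tested.

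Among the remaining lists, angiogenic factors had a median of 0.02 (*Vegfa* 0.07, *Angptl4* −0.54, *Thbs1* −0.45, *Angpt1* 0.60) and interferon response genes −0.02 (*Irf7* 0.02, *Isg15* −0.26, *Ifit1* −0.25, with the range from *Mx2* at −0.68 to *Cxcl10* at 0.82). Hypoxia and glycolysis genes had −0.04 (*Slc2a1* −0.44, *Hk2* 0.45, *Ldha* 0.24, from *Pfkp* at −1.21 to *P4ha1* at 0.61) and prostaglandin genes 0.08 (*Ptgs2* −0.29, *Pla2g4a* −0.29, *Ptges* 0.77, from *Ptger2* at −0.39 to *Alox12b* at 1.54). The proliferin genes *Prl2c2* and *Prl2c5* gave 0.61 ± 0.99 and 1.36 ± 0.76. Endothelial markers were positive for 8 of 9 with a median of 0.75, yet lay below the pool, with the list's mean at −2.63 to −0.57 in WT ras and −3.29 to −1.12 in WT mock. The vessel genes *Pecam1*, *Cdh5* and *Kdr* gave −0.41, 0.73 and 1.36. Leukocyte markers were positive for 9 of 13 with a median of 0.40 (*Ptprc* 0.67, *Cd74* 0.40, *Lyz2* −0.07, from *H2-Ab1* at −0.55 to *H2-Aa* at 1.45) and a mean of −2.68 to −0.88 in WT ras and −2.66 to −1.18 in WT mock. Merkel cell markers were positive for 5 of 8 with a median of 0.13 (*Krt20* 0.16, *Atoh1* −0.46).

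**Figure D3:**
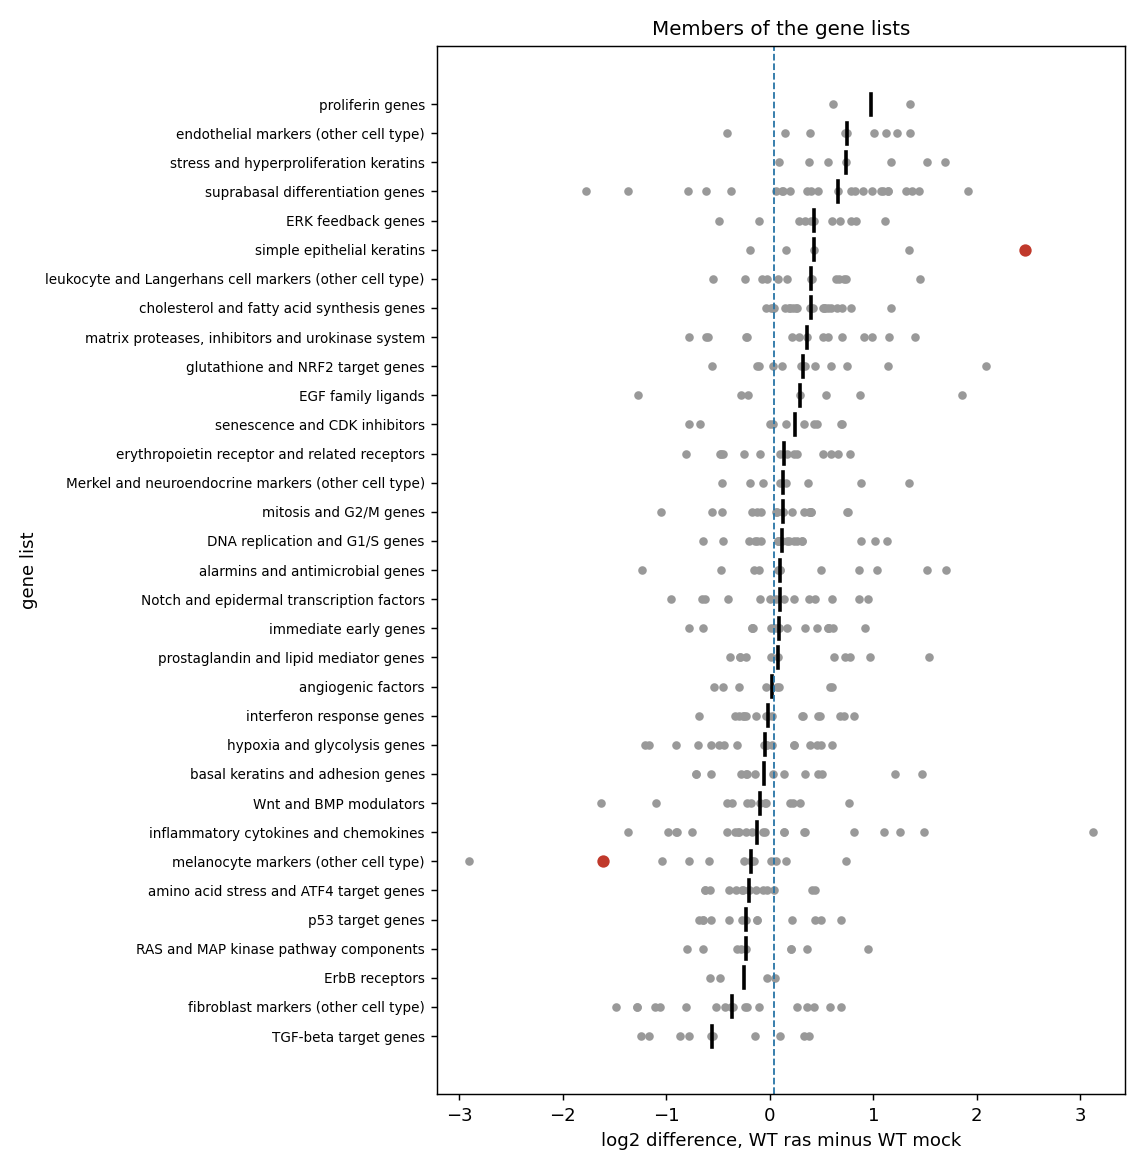
Log2 difference of WT ras minus WT mock (horizontal axis) of each tested member (grey points) of the 33 gene lists, ordered by their median (black bars). The called members *Krt23* and *Foxd3* are red, and the dashed line marks the median of all host genes, 0.04.

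Some list genes kept a sign throughout. Of 46 called genes or members of the 28 functional lists with an unadjusted p under 0.05 in WT, 24 had the same sign in all 5 ras comparisons, 21 higher and 3 lower. Beside them, 243 of all 624 host genes higher at that p (38.9%) and 71 of the 328 lower (21.6%) did so across the other 4 comparisons. Those higher included *Tgfa*, *Itga3*, *S100a9*, *S100a7a*, *Il24*, *Hmox1*, *Dusp6* and *Ccnd1*, and those lower were *Stat3*, *Notch1* and *Sostdc1*. The 46 are not split by direction here, so the 21 and 3 cannot be set against the 38.9% and 21.6%. *Tnfaip2* is read here by its second probe, which gave −0.10 with AG1478 and −0.05 in KO cells, and is not among the 24. Of the 24, 17 have promoter windows and 4 of these hold TGANTCA, *Il1a*, *Itga3*, *Mmp3* and *S100a11*, against 8.97% of all genes with a window. In *Mmp3*, printed above, the motif starts 46 bases before the start site. For *Itga3* it lies only in the window at chr11:95069149-95069448, reads TGAATCA and starts 12 bases after that start site. The other *Itga3* window, at chr11:95076665-95076964, holds 0. These genes were chosen after their values were seen, and the share with the motif was not tested.

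**Figure D4:**
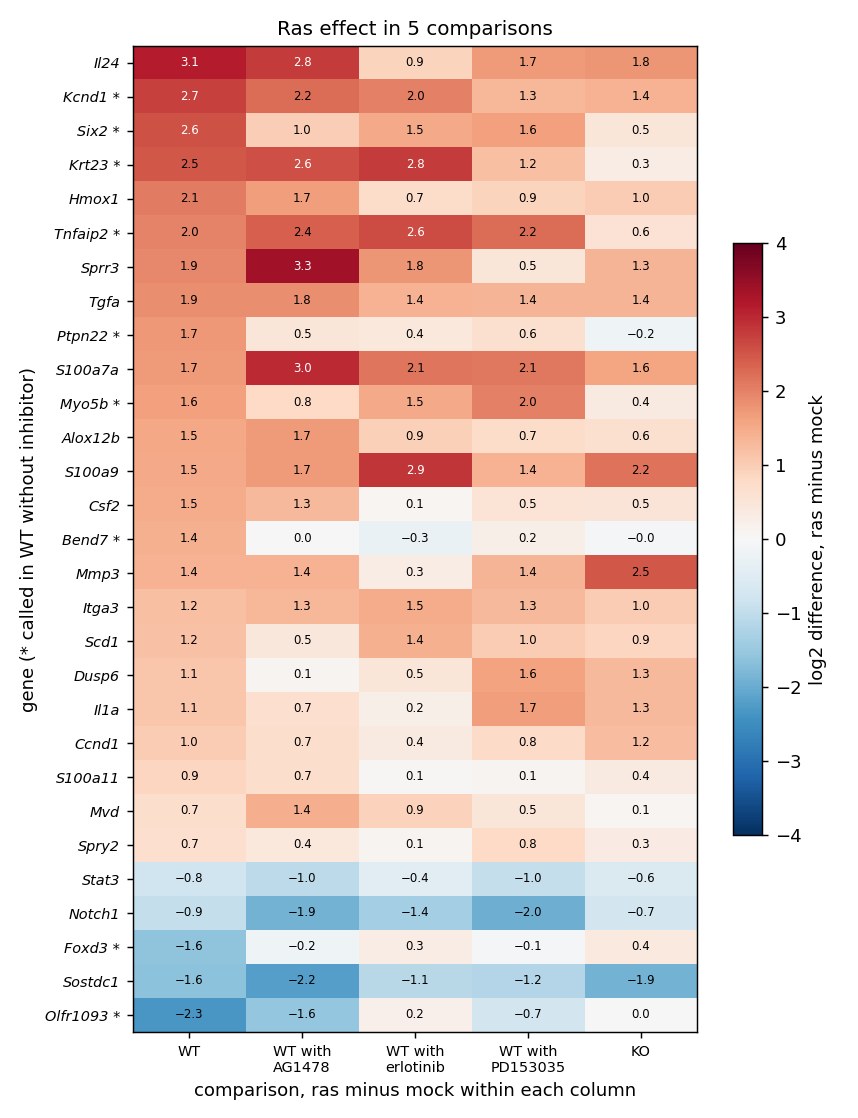
Log2 difference of ras minus mock (colour and printed value) of the 9 called genes (starred) and of list genes of 1 sign throughout, in WT cells, WT cells with each inhibitor and KO cells. *Tgfa* runs from 1.37 to 1.85 across the columns and *Itga3* from 1.02 to 1.50, while *Foxd3* and *Bend7* are near 0 outside the first column.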

How the data were processed

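Total RNA was extracted with Trizol, and cDNA was labelled with Cy3 or Cy5 and hybridised against universal mouse reference RNA in the other dye, per the labels' protocols. The authors deposited 1 log ratio per probe and array. That these are log2 values is an assumption from their spread, and background correction, normalization and spot filters are not given in the sources used here. Depth has no meaning for arrays, whose number limits the precision.

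The sign of every array was set so that it correlated positively with the forward arrays' median, giving sample over reference. For the 10 arrays compared this equals the label, and for KO ras with AG1478 replicates 3 and 4 it does not. Of 28049 probes, 20889 had 1 host symbol, 158 several, 37 a retroviral or viral record and 6965 none, and 21 symbols were updated to current names. Probe annotation can be old. The repeat 1 mock arrays correlated at 0.834, against up to 0.903 for another mock pair. Array runs were parted where experiment numbers differ by more than 100.

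limma 3.58.1 (R 4.3.3) fitted all 13 groups (62 samples) with a dye term on the deposited log2 ratios as given. Probes with values on at least 60 percent of the arrays of both groups were tested, with Benjamini-Hochberg adjustment over all of them, and a probe is called at an adjusted p under 0.05. Nothing beyond the series' statement on biological replicates says that samples came from separate cultures, so p-values reflect the scatter among these samples only, and that scatter may be technical. Other tools were Python 3.11.15 and matplotlib 3.10.9. Promoters came from RefSeq (GRCm38.p6).

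The genes named are all called host genes, the 5 largest uncalled ones without overlap in each direction, the first 3 measured genes and the extreme members of each list, and *Egfr*. Genes that kept 1 sign in 5 comparisons, and single values outside that rule such as those of *Itga3* and *Csf2*, were chosen after their values were seen. Each gene is read by its probe with most values, except *Tnfaip2*, whose called probe is another one. The members and lists were chosen with earlier results of these data known. As deviations from their group means, same-numbered WT ras and WT mock samples correlated at 0.149, −0.04, −0.27 and −0.404. Samples with different numbers ran from −0.45 to 0.496, so whether the numbers pair samples cannot be told from these values. The main fit took the samples as unpaired.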

Additional observations from a re-analysis of the deposited data

Results flagged for a closer look

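Among 144 groups of 4 or 5 values (samples of the named genes, list means and array correlations) 15 held 1 value far from the others, beside about 1 in 20 groups that chance would give. WT mock 2 was low for *Vps37d* at 2.27 (others 3.28 to 3.43), *S100a9* at 1.28 (others 2.79 to 3.02), *Spry2* at −0.56 (others −0.04 to 0.05) and the mean of the alarmins at 0.87 (others 1.48 to 1.57). WT mock 5 was high for *Olfr1093* at 2.94 (others 1.93 to 2.08) and the mean of interferon response genes at −0.092 (others −0.72 to −0.62), and low for *Hmox1* at −1.10 (others 0.58 to 0.85) and the mean of immediate early genes at 0.60 (others 1.56 to 1.65). WT ras 3 was low for *S100a7a* at −0.20 (others 2.55 to 3.50) and the mean of ERK feedback genes at 0.36 (others 0.89 to 1.09). WT ras 1 was low for *S100a11* at 2.13 (others 3.39 to 3.59). WT ras 4 was low for the means of senescence genes at −0.38 (others 0.15 to 0.33) and interferon response genes at −0.92 (others −0.37 to −0.27), and high for prostaglandin genes at 1.42 (others 0.99 to 1.05). WT mock 3 was high for senescence genes at 0.14 (others −0.12 to −0.08).

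The ras difference of WT minus that of KO cells was called in limma for *Dlk1*, a transmembrane protein with EGF-like repeats, at 4.01 ± 0.53 (adjusted p = 9.65e-06), *Cd320*, the transcobalamin receptor, at 3.22 ± 0.60 (adjusted p = 0.0231), and *Cyp2c37*, a cytochrome P450, at 3.28 ± 0.63 (adjusted p = 0.0317). With array run as a random block *Dlk1* stayed called (adjusted p = 0.000722), while *Cd320* and *Cyp2c37* were not (adjusted p = 0.291 each). In WT cells alone these genes gave 0.05, −0.22 and 0.90, none of them called, and in KO cells −3.96, −3.44 and −2.38. *Dlk1* averaged −0.10 in WT ras, −0.24 in WT mock, −0.65 in KO ras and 3.08 in KO mock, so the KO mock samples, alone in their array run, lay highest.

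In probes that carry no gene name, 26 were called, all higher in WT ras, by 1.96 to 5.52.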

How the results depend on the processing

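The direction of the 9 called host genes held under 25 alternatives (24 for those not tested under one), with *Foxd3* called in 20 of 24, *Kcnd1* in 16 of 25, *Tnfaip2* in 17 of 24, *Krt23* in 14 of 25 and *Myo5b* in 8 of 25. Counts of called probes and host genes, 51 and 9, were 17 and 0 with only WT ras and WT mock in the fit, 29 and 1 within the later array run alone, and 90 and 29 with array quality weights. Without a dye term 4 host genes were called. Averaging probes by gene gave 1, *Foxd3*, and adjusting over host-gene probes alone, chosen after seeing the data, gave 0. Leaving out 1 sample gave 34 to 57 probes and 1 to 12 host genes, the lowest without WT ras 5 (1), WT mock 2 (2) and WT mock 3 (2). With replicate number as a block and only these groups in the fit, limma called 0 probes and 0 host genes, and the same block with only the KO groups in the fit gave 42 probes, against 151 without it. With run as a random block (consensus correlation 0.26) the WT count was 61, that of KO cells 7, AG1478 145, erlotinib 217 and PD153035 63. WT minus KO then gave 1 probe, *Dlk1*, and without WT ras 3, also chosen after seeing the data, 4. The cause was not tested. Of the list medians, 818 values moved by less than the spread between replicates and 7 by more. Depth is not measured on arrays, and the files used here give no signal over background.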
